A study of Homo sapiens with 8 samples.

Results

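The enzymes that write and erase N6-methyladenosine (m6A), a methyl mark on adenosines of messenger RNA, are themselves made from messenger RNAs that can carry the mark. The 10 genes described here were fixed by name, 8 writers or writer partners (METTL14, METTL3, WTAP, KIAA1429, RBM15, ZC3H13, CBLL1 and METTL16) and 2 erasers (FTO and ALKBH5). Their m6A peaks were taken from every row of the 4 deposited peak lists that carries their gene name, which gave 181 of 130622 listed peaks and 10 of 8758 genes with a peak. The lists come from MeRIP-seq, which sequences RNA fragments pulled down by an m6A antibody together with input RNA that was not pulled down. A peak is a stretch of transcript with more antibody-enriched signal than input, so the lists show where the mark was detected and do not measure how much RNA a gene makes.

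The samples are established human osteosarcoma lines, U2OS and 143B, each infected with a lentiviral short hairpin RNA against METTL14 (shMETTL14) or with a control hairpin (NC). There is 1 list for each of the 4 combinations, so no difference between hairpins or lines has a replicate check. The lines give 2 pairs of hairpin lists, over which an exact two-sided permutation test cannot go below p = 0.5, and no test across conditions was run. All cells were grown in DMEM, the controls carry a lentiviral hairpin too, and whether METTL14 RNA or protein was reduced cannot be read from these lists. The whole lists held 29992 peaks in U2OS shMETTL14, 32353 in U2OS NC, 35195 in 143B shMETTL14 and 33082 in 143B NC, and the read depth behind them is unknown. The bases they covered were 3160345 in U2OS shMETTL14 against 3458962 in U2OS NC, and 4224195 in 143B shMETTL14 against 3600029 in 143B NC. Of 11 osteoblast-lineage genes, 4 had a peak in U2OS shMETTL14 and 3 in U2OS NC, and 5 in 143B shMETTL14 and 4 in 143B NC. RUNX2 and SPARC had peaks in all 4 lists, SP7, ALPL, COL1A2, SPP1, IBSP and BGLAP in none, and 0 of 5 blood markers had a peak. Of 5 epithelial markers, KRT8 had peaks in all 4 lists and KRT18 in both 143B lists.

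Most m6A in messenger RNA is written in the nucleus by a heterodimer of METTL3, the catalytic subunit, and METTL14, which binds and positions the RNA. WTAP anchors the heterodimer, and KIAA1429 (now named VIRMA), RBM15, ZC3H13 and CBLL1 (also named HAKAI) form the regulatory part of the complex that guides it to its targets. METTL16 is a separate m6A methyltransferase that acts on the MAT2A messenger RNA and on U6 small nuclear RNA. FTO and ALKBH5 are the demethylases that remove the mark. In general m6A is densest in long internal exons and around the stop codon.

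Of the 10 genes, 8 had peaks in all 4 lists, where 51.0% of all genes with any peak did so. The exceptions were METTL3, with peaks in 143B shMETTL14 alone, and FTO, with peaks in every list but 143B NC. The genes carried 42 peaks in U2OS shMETTL14 against 45 in U2OS NC, and 48 peaks in 143B shMETTL14 against 46 in 143B NC. A locus is listed separately for each annotated isoform it lies in. Joined within a list where they overlapped, they formed 18 sites in U2OS shMETTL14 and 20 in U2OS NC, and 22 in 143B shMETTL14 and 23 in 143B NC. Joined over all 4 lists on the same strand, the peaks formed 30 sites. A peak of the NC list with no overlapping shMETTL14 peak (at least 1 bp of spliced sequence, same strand) is called lost, and a shMETTL14 peak with no NC partner gained. Both words describe lists, not a measured change in methylation. The p-value and the fold enrichment of a peak are the authors' own and are used here only to describe and rank peaks within a list. Sites are numbered below from the 5′ to the 3′ end of each gene, and all positions are on hg19, counted from 1.

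**Figure D1:**
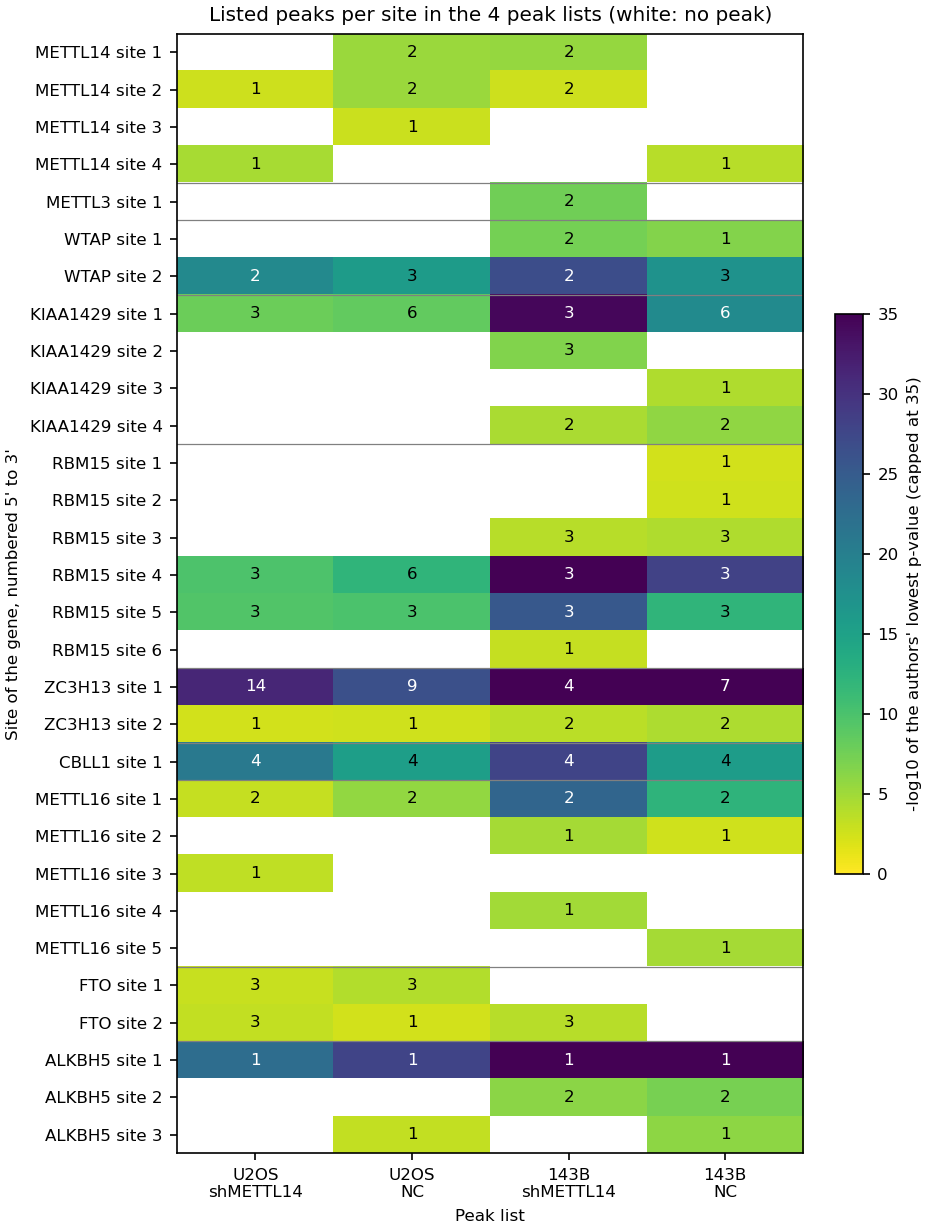
Each row is a site of a gene and each column a peak list. The number is the count of listed peaks, the colour the lowest p-value given by the authors (−log10, capped at 35), and white cells have no peak. The 9 sites filled in all 4 columns are 1 each on WTAP, KIAA1429, CBLL1, METTL16 and ALKBH5 and 2 each on RBM15 and ZC3H13.

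Of the 30 sites, 9 were listed in all 4 lists (30.0%, exact Clopper-Pearson interval 14.7 to 49.4), against 30.1% of the 18714 sites over all genes. A further 10 sites (33.3%) were in 1 list, against 37.8% of all sites. The share of sites in all 4 lists was thus close to that of the whole data set. These sites were spread over WTAP, KIAA1429, RBM15, ZC3H13, CBLL1, METTL16 and ALKBH5, while METTL14, METTL3 and FTO had none. Sites in both 143B lists and in no U2OS list numbered 5 (16.7%), against 7.26% of all sites, and 1 site (3.33%) was in both U2OS lists and in no 143B list, against 4.33% of all sites.

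METTL14, the gene the hairpin targets, had peaks at 4 sites on the plus strand of chromosome 4, and none of these sites was in all 4 lists. With shMETTL14 its peaks covered 242 bases in U2OS, against 434 with NC, and in 143B 297 bases with shMETTL14 against 180 with NC. The bases covered with both hairpins numbered 61 in U2OS and 0 in 143B.

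Site 1 of METTL14 lies in the coding sequence and spans introns (119609159 to 119613153). It had no peak in U2OS shMETTL14, against 2 peaks in U2OS NC, each with a p-value of 5.4e-06 and a fold enrichment of 3.67. In 143B it had 2 peaks with shMETTL14, the stronger with a p-value of 2.9e-06 and a fold enrichment of 5.98, and no peak with NC. Site 1 was thus listed with NC alone in U2OS and with shMETTL14 alone in 143B, as were 2.43% of all sites.

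Site 4, in the 3′ UTR (119632163 to 119632402), had the opposite pattern, which 1.05% of all sites shared. In U2OS it had a peak with shMETTL14, with a p-value of 2.6e-05 and a fold enrichment of 18.5, and none with NC. In 143B it had none with shMETTL14 and a peak with NC, with a p-value of 1.8e-04 and a fold enrichment of 2.45. Between these lay site 2, at the end of the coding sequence (119631325 to 119631505), listed in every list but 143B NC. Its lowest p-value was 2.1e-03 in U2OS shMETTL14 against 5.6e-06 in U2OS NC, and 2.2e-03 in 143B shMETTL14. Site 3, a 3′ UTR stretch of 91 bases (119631744 to 119631834), was listed in U2OS NC alone, with a p-value of 1.6e-03.

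Every METTL14 peak had a p-value above the median of its list. Ranked by the lowest p-value per gene, METTL14 stood at 4185 of 6092 genes in U2OS shMETTL14 and 3903 of 6426 in U2OS NC. In 143B it stood at 4499 of 6916 genes with shMETTL14 and 5324 of 6621 with NC.

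**Figure D2:**
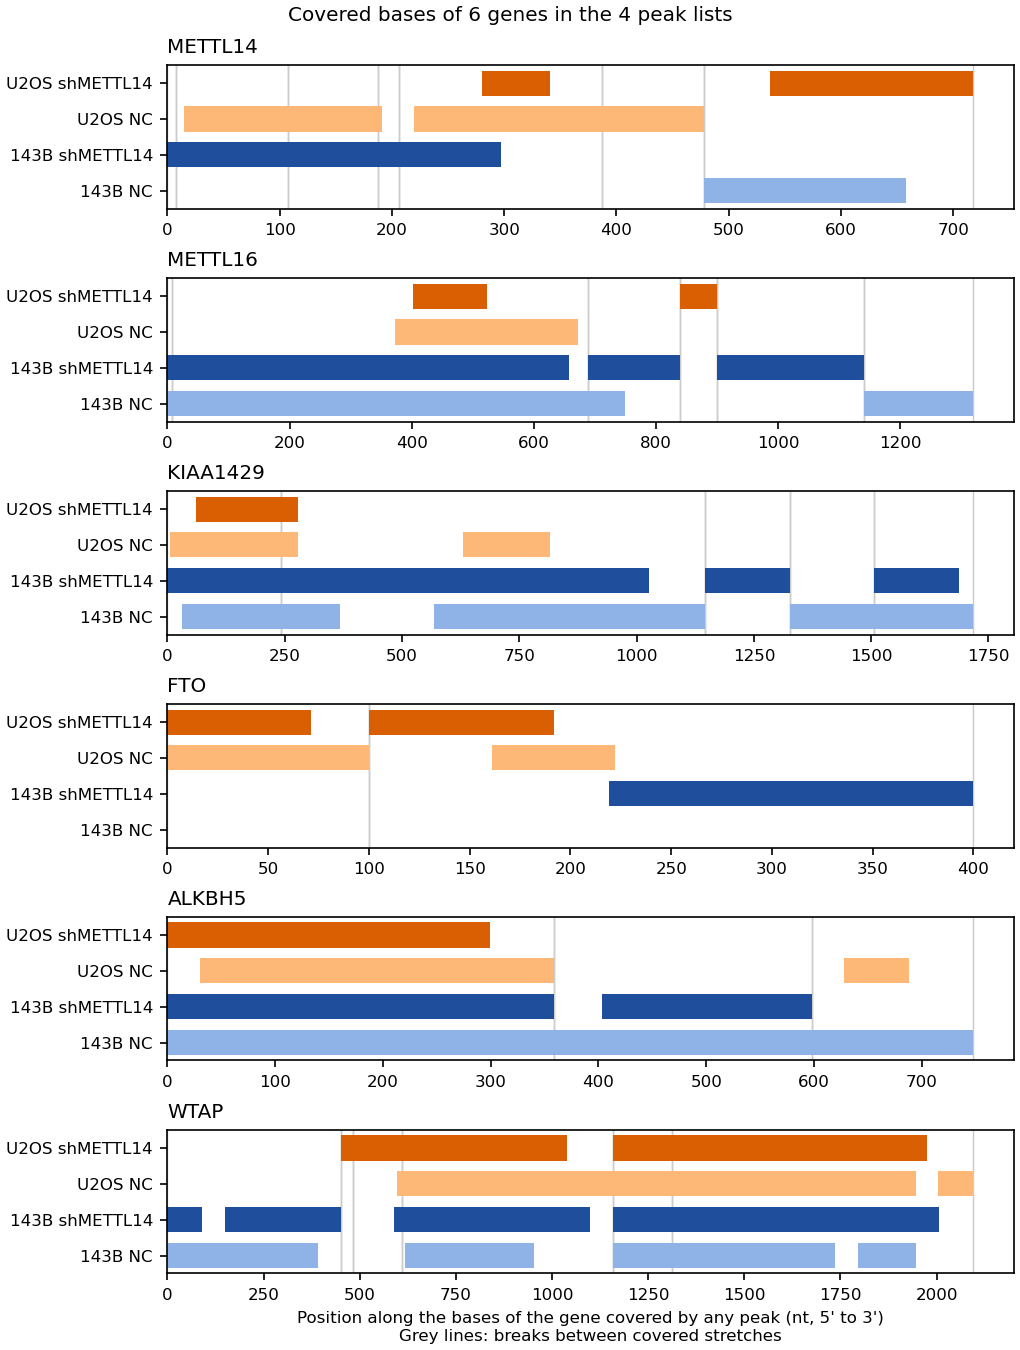
Bars show the bases covered by peaks of 6 genes in each list, placed along the bases of the gene that any peak covers (nt, 5′ to 3′); grey lines mark where stretches that are apart in the genome were put side by side. The METTL14 panel shows the coding bases at left covered in U2OS NC and 143B shMETTL14, and the 3′ UTR bases at right covered in U2OS shMETTL14 and 143B NC.

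METTL3, the catalytic partner, had 2 peaks, both in 143B shMETTL14 and both of the same locus on the minus strand of chromosome 14. In the longer listed stretch (21970031 to 21971479) the peak lay in coding sequence, covered 179 bases, and had a p-value of 2.5e-08 and a fold enrichment of 2.56. On another isoform the locus was annotated as coding sequence and 3′ UTR, with a p-value of 8.1e-08 and a fold enrichment of 2.49. METTL3 overlaps the gene TOX4 in the RefSeq annotation, and whether the libraries keep strand is not given in the sources. METTL3 and FTO were the members with a peak in 143B shMETTL14 and none in 143B NC, a state that 14.0% of the genes with a peak in either 143B list shared. In U2OS no member was listed with shMETTL14 alone, against 10.5% of genes.

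All 5 regulatory subunits had at least 1 site in all 4 lists. WTAP on chromosome 6, which overlaps SOD2 in the annotation, had a long spliced site over coding sequence and 3′ UTR (site 2, 160163146 to 160176842). Its lowest p-value was 3.2e-19 in U2OS shMETTL14 and 1.6e-16 in U2OS NC, and 1.6e-27 in 143B shMETTL14 and 7.9e-18 in 143B NC. Of the bases covered on WTAP, 1231 were common to both U2OS lists, out of 1408 with shMETTL14 and 1440 with NC. The single WTAP peak lost in U2OS, in the 3′ UTR (160176752 to 160176842), lay 29 bases from a peak of the shMETTL14 list and had a p-value of 7.6e-04.

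WTAP also had a 5′ UTR site (site 1, 160147276 to 160147725), the only site of the 10 genes wholly in a 5′ UTR. It was listed in both 143B lists, with a lowest p-value of 5.2e-08 with shMETTL14 and 3.2e-07 with NC, and in neither U2OS list.

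KIAA1429 on the minus strand of chromosome 8 had its main site in the coding sequence (site 1, 95538690 to 95541540), listed everywhere. In U2OS its covered bases were 218 with shMETTL14 and 459 with NC, and all 218 lay within those of NC. The 3 peaks lost in U2OS were isoform listings of 1 coding locus (95539019 to 95539205), each 6.68 to 8.02 in fold enrichment, with p-values of 2.6e-06 to 4.7e-06. In 143B that locus was covered with both hairpins, inside peaks with a lowest p-value of 4.0e-35 with shMETTL14 and 3.2e-08 with NC.

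Further KIAA1429 sites were seen in 143B alone. Site 4, annotated across the stop codon of 1 isoform and in the 3′ UTR of another (95500759 to 95500969), had a lowest p-value of 4.1e-05 with shMETTL14 and 1.7e-06 with NC. Site 2 in the coding sequence (95531316 to 95531496) was listed with shMETTL14 and not with NC, with 3 isoform listings and a lowest p-value of 2.1e-07. Site 3 (95523260 to 95523440) was listed with NC and not with shMETTL14, on 1 isoform, with a fold enrichment of 14.3 and a p-value of 7.4e-05.

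RBM15, an RNA-binding subunit, had sites 4 and 5, coding but for a stretch across a stop codon in site 5, in all 4 lists (chromosome 1, 110883249 to 110884478 and 110884534 to 110889000). Site 4 had a lowest p-value of 1.7e-10 in U2OS shMETTL14 and 7.9e-13 in U2OS NC, and 1.6e-37 in 143B shMETTL14 and 7.9e-29 in 143B NC. In U2OS the covered bases were 1106 with shMETTL14 and 1082 with NC, of which 968 were common, and no RBM15 peak was lost or gained. The 6 listed peaks of shMETTL14 against 9 of NC reflect site 4, which is 1 long peak per isoform in shMETTL14 and a pair of shorter ones in NC. In 143B the covered bases were 1913 with shMETTL14 and 1901 with NC, with 1627 common.

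The upstream RBM15 sites were seen in 143B alone. Site 3 (110882921 to 110883140) was in both lists, with lowest p-values of 1.9e-04 with shMETTL14 and 7.8e-05 with NC. Sites 1 and 2, of 60 and 61 bases, were in NC alone, with p-values of 4.5e-03 and 3.1e-03, and site 6 in the 3′ UTR was in shMETTL14 alone, with a p-value of 8.9e-04. These unmatched RBM15 peaks had fold enrichments of 2.01 to 3.05.

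ZC3H13, a zinc finger subunit that holds the complex in the nucleus, had the most covered bases of the 10 genes in every list. Peaks on the minus strand of chromosome 13 (site 1, 46538061 to 46619533) covered 3832 bases in U2OS shMETTL14 against 4025 in U2OS NC, and 4489 in 143B shMETTL14 against 4302 in 143B NC. Among the writers it had the lowest p-value in every list. That p-value was 6.3e-32 in U2OS shMETTL14 and 4.0e-27 in U2OS NC, and 1.3e-75 in 143B shMETTL14 and 5.0e-51 in 143B NC. In 143B shMETTL14 this put ZC3H13 at rank 350 of 6916 genes, and in 143B NC at rank 368 of 6621. Of the covered bases, 94.7% of those with shMETTL14 and 90.2% of those with NC were common in U2OS. In 143B the common share was 95.3% with shMETTL14 and 100% with NC.

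The count of listed ZC3H13 peaks, 15 with shMETTL14 against 10 with NC in U2OS and 6 with shMETTL14 against 9 with NC in 143B, therefore did not track the covered bases, since 1 long peak in a list can stand where several shorter ones stand in the other. Site 2 of ZC3H13 (46531203 to 46533723), towards the 3′ end of its coding sequence, was in all 4 lists. Its U2OS peaks were annotated as coding sequence, and its 143B peaks as coding sequence and 3′ UTR, across the stop codon. Its lowest p-values were 4.2e-03 in U2OS shMETTL14, 2.9e-03 in U2OS NC, 2.3e-04 in 143B shMETTL14 and 4.9e-05 in 143B NC. This site is a chain, since its U2OS NC peak (46533663 to 46533723) shared 1 base with each shMETTL14 list and 0 with 143B NC. In the other 8 sites listed everywhere, each pair of lists shared bases.

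CBLL1, the ubiquitin ligase subunit, had 1 site on chromosome 7 (107398697 to 107399687) with 4 isoform listings in each list. It covered 961 bases in U2OS shMETTL14 and 899 in U2OS NC, and 961 bases in 143B shMETTL14 and 910 in 143B NC. The bases common to both hairpins were 869 in U2OS and 910 in 143B. CBLL1 was the member with the same number of listed peaks in all 4 lists and none lost or gained. The lowest p-values were 1.3e-21 in U2OS shMETTL14 and 4.0e-16 in U2OS NC, and 1.6e-28 in 143B shMETTL14 and 2.5e-16 in 143B NC. The same locus is coding sequence in 1 listed isoform, 3′ UTR in another, and spans the stop codon in the remaining ones. The RefSeq annotation places the antisense gene CBLL1-AS1 over part of CBLL1.

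**Figure D3:**
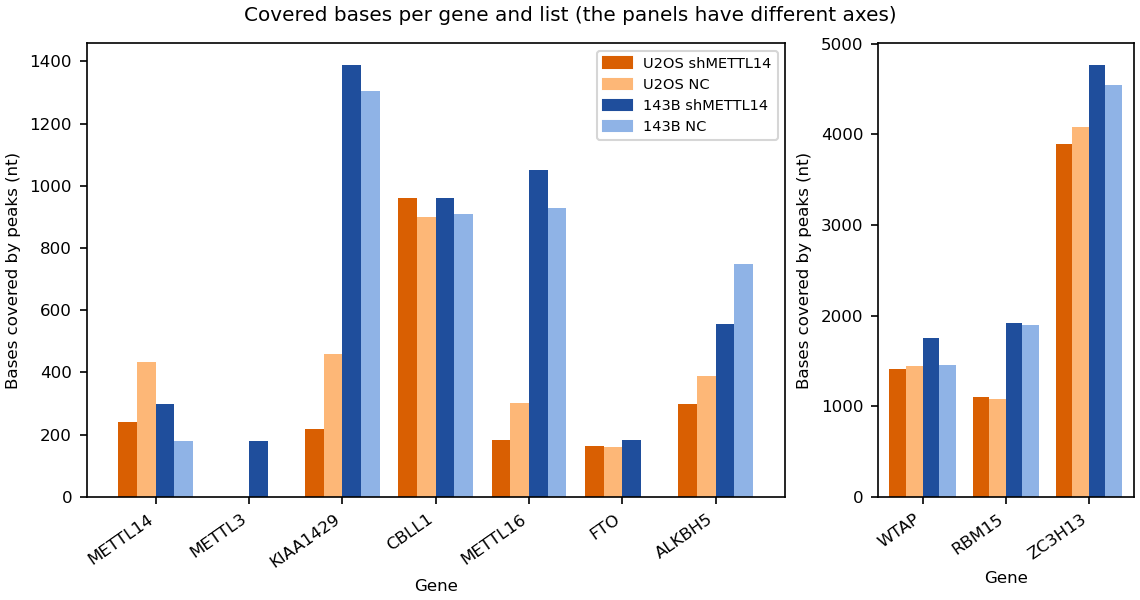
Bars give the bases of each gene covered by peaks in each list (nt), with shMETTL14 left of NC within each line. CBLL1, RBM15 and ZC3H13 have bars of like height within a line, for CBLL1 from 899 to 961 nt over the 4 lists. WTAP has 1408 nt in U2OS shMETTL14 against 1440 in U2OS NC, and 1750 in 143B shMETTL14 against 1454 in 143B NC. METTL3 has a bar in 143B shMETTL14 alone.

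METTL16, the separate methyltransferase, had 5 sites on the minus strand of chromosome 17. Site 1, at the end of the coding sequence (2323211 to 2324032), was in all 4 lists but differed in extent. It covered 121 bases in U2OS shMETTL14, with a lowest p-value of 8.5e-04, all within the 300 bases of U2OS NC, where the lowest p-value was 2.4e-06. In 143B it covered 658 bases with shMETTL14, with a p-value of 2.5e-24, and 688 bases with NC, with a p-value of 5.0e-13.

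The METTL16 3′ UTR sites were mostly specific to a list. Site 2 (2321821 to 2321971) was in both 143B lists, with p-values of 1.7e-05 with shMETTL14 and 2.8e-03 with NC. Site 3 (2321552 to 2321612) was in U2OS shMETTL14 alone, with a fold enrichment of 14.2 and a p-value of 5.2e-04. Sites 4 and 5 were counted as a gain and a loss in 143B and lay 29 bases apart. Site 4 (2320416 to 2320655) had a fold enrichment of 16.6 and a p-value of 1.4e-05 with shMETTL14. Site 5 (2320207 to 2320386) had a fold enrichment of 17.0 and a p-value of 1.7e-05 with NC.

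FTO on chromosome 16 had peaks in its 3′ UTR alone, and each had a p-value above the median of its list. Its lowest p-value was 6.8e-04 in U2OS shMETTL14 and 8.9e-05 in U2OS NC, and 1.7e-04 in 143B shMETTL14. Ranked by that value it stood at 5584 of 6092 genes in U2OS shMETTL14, 4925 of 6426 in U2OS NC and 5723 of 6916 in 143B shMETTL14. The covered bases in U2OS were 163 with shMETTL14 and 161 with NC, with 102 in common.

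Site 1 of FTO (54147710 to 54147809) was in both U2OS lists and in no 143B list. Site 2 (54148016 to 54148315) joined neighbouring peaks of 3 lists. It ran from 54148016 to 54148107 in U2OS shMETTL14, from 54148077 to 54148137 in U2OS NC and from 54148135 to 54148315 in 143B shMETTL14. The single gained FTO peak in U2OS, an isoform listing that ends at 54148075, lay 1 base short of the NC peak. The peak of 143B shMETTL14 shared no base with that of U2OS shMETTL14.

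ALKBH5 on chromosome 17 had a coding site (site 1, 18087583 to 18087941) in all 4 lists, with the highest fold enrichment of the 10 genes in both 143B lists. This peak had a fold enrichment of 14.2 in U2OS shMETTL14 and 7.89 in U2OS NC, and 46.0 in 143B shMETTL14 and 31.3 in 143B NC. Its p-value was 3.2e-23 in U2OS shMETTL14 and 1.6e-28 in U2OS NC, and 1.6e-52 in 143B shMETTL14 and 2.0e-49 in 143B NC. By that value ALKBH5 stood at rank 944 of 6092 genes in U2OS shMETTL14 and 751 of 6426 in U2OS NC, and at rank 559 of 6916 in 143B shMETTL14 and 384 of 6621 in 143B NC.

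The 3′ UTR of ALKBH5 differed between lists. Site 2 (18111761 to 18111999) was in both 143B lists, with lowest p-values of 9.1e-07 with shMETTL14 and 7.4e-08 with NC. Site 3 (18112701 to 18112850) was absent from both shMETTL14 lists and present in both NC lists, with a p-value of 5.4e-04 in U2OS NC and 9.8e-07 in 143B NC. It was the single site of the 30 listed with NC in both lines and with shMETTL14 in neither, a pattern of 1.92% of all sites. The fold enrichment there was 1.90 in U2OS NC and 2.38 in 143B NC, below the medians of those lists, 3.60 and 3.79.

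The comparison the study was designed for is that of shMETTL14 with NC within a line. In U2OS, 3 of 42 shMETTL14 peaks of the 10 genes were gained (7.14%, interval 1.5 to 19.5), against 20.9% of all peaks, and 8 of 45 NC peaks were lost (17.8%, interval 8.0 to 32.1), against 26.9% of all peaks. In 143B, 14 of 48 shMETTL14 peaks were gained (29.2%, interval 17.0 to 44.1), against 27.3% of all peaks, and 6 of 46 NC peaks were lost (13%, interval 4.94 to 26.3), against 20.7% of all peaks. The intervals at the 95% level are exact binomial ones, which cover counting error only and treat isoform listings as independent. The intervals of the lost share in U2OS and of both shares in 143B included the value of the whole list, and that of the gained share in U2OS did not. Without ZC3H13, the gained share in U2OS was 11.1% (interval 2.35 to 29.2), which includes it. Where partners had to share at least 50% of each peak, the gained share in U2OS was 38.1%, against 37.0% of all peaks. With the peaks of a list joined to sites, 11.1% of the sites were gained and 25.0% lost in U2OS, against 24.9% gained and 31.2% lost over all genes, and 31.8% were gained and 26.1% lost in 143B, against 32.0% gained and 24.6% lost over all genes.

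Joined only with each other, the 3 gained peaks of U2OS were 3 loci, on METTL14, METTL16 and FTO. The FTO listing overlapped other FTO listings of U2OS shMETTL14 that had an NC partner, so it was not a separate gained place. With all peaks of the list joined to sites, 2 of 18 sites were gained in U2OS, on METTL14 and METTL16. The 8 lost peaks of U2OS were 5 loci, on METTL14, WTAP, KIAA1429 and ALKBH5. In 143B the 14 gained peaks were 7 loci, on METTL14, METTL3, KIAA1429, RBM15, METTL16 and FTO. The 6 lost peaks of 143B were 6 loci, on METTL14, KIAA1429, RBM15, METTL16 and ALKBH5. METTL14 and METTL16 had a gained locus in both lines, as did FTO if its U2OS listing is counted. METTL14, KIAA1429 and ALKBH5 had a lost locus in both. Of these, only the ALKBH5 locus, in site 3, was the same place in both lines, and the others lay at different positions. The same count over all genes was not made. WTAP, ZC3H13 and CBLL1 had neither loss nor gain in 143B.

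**Figure D4:**
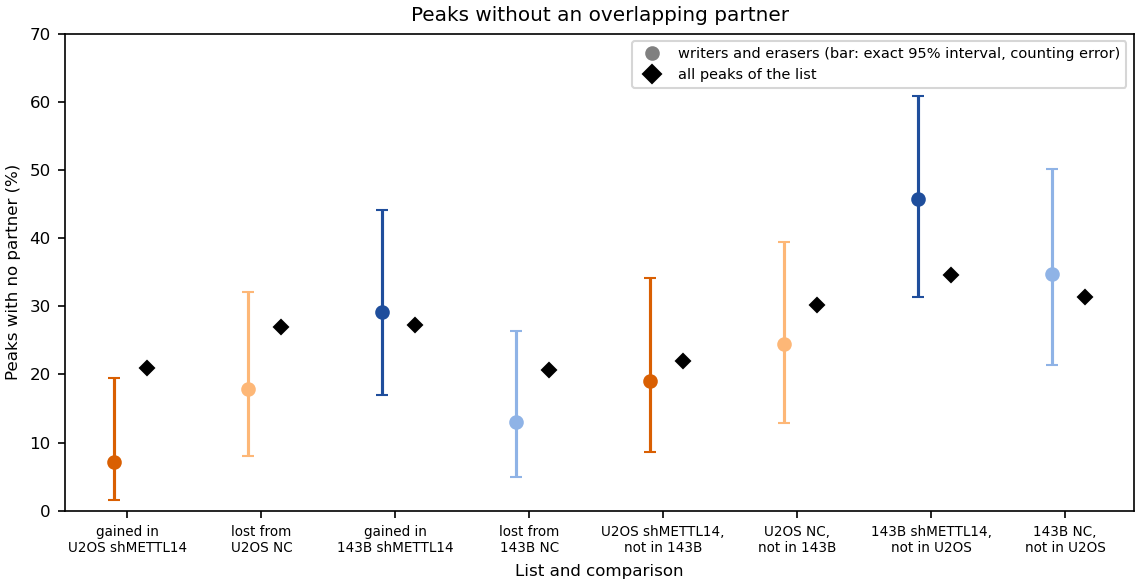
Circles give the share of writer and eraser peaks with no overlapping partner (%) in the list compared, with exact 95% intervals for counting error, and diamonds the share over all peaks of the list. In U2OS shMETTL14 the gained share of 7.14% lies below the 20.9% of the whole list, and in 143B shMETTL14 the 29.2% lies beside 27.3%.

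Covered bases gave a view that does not depend on isoform listings. Of the bases covered on the 10 genes in U2OS, 88.8% of those in shMETTL14 and 81.3% of those in NC were covered with the other hairpin too, against 75.6% in shMETTL14 and 69.1% in NC over all genes. In 143B, 82.3% of the bases of shMETTL14 and 89.6% of those of NC were common, against 66.1% in shMETTL14 and 77.5% in NC over all genes. The 10 genes thus had a higher common share in each list, and ZC3H13 alone supplied 3893 of 8472 bases in U2OS shMETTL14 and 4765 of 13037 in 143B shMETTL14. Their peaks were also wider, with a median of 315 nt against 210 over all genes in U2OS shMETTL14 and 270 against 210 in U2OS NC. In 143B it was 254 against 236 with shMETTL14 and 327 against 209 with NC. The part of width in the common share was not tested. Of the 10 genes, 5 covered fewer bases with shMETTL14 in U2OS and more in 143B, namely METTL14, WTAP, KIAA1429, ZC3H13 and METTL16. The whole lists differed in the same directions, as given above, and the part of this in the values of single genes was not tested.

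Peak strength moved with these calls. In U2OS shMETTL14 the median p-value was 5.2e-04 for the 3 gained peaks and 3.2e-10 for those with a partner, and in U2OS NC it was 5.4e-06 for the lost peaks and 2.3e-10 for those with a partner. In 143B shMETTL14 it was 1.2e-05 for the gained peaks and 1.4e-23 for those with a partner, and in 143B NC 1.3e-04 for the lost peaks and 1.1e-12 for those with a partner. Unmatched peaks of the 10 genes were thus weaker in each list. Over all genes, 89.3% to 91.5% of the unmatched peaks in a list had a p-value above that list's median. Peaks of the 10 genes tended to be stronger than their list, and 71.4% of them in U2OS shMETTL14 and 66.7% in U2OS NC had a p-value at or below the list median. In 143B these shares were 58.3% with shMETTL14 and 67.4% with NC. Isoform listings are counted here, and ZC3H13 supplied 14 of the 30 such peaks in U2OS shMETTL14 and 9 of the 30 in U2OS NC. In 143B it supplied 4 of 28 with shMETTL14 and 6 of 31 with NC. METTL14 and FTO supplied none in any list. Among such stronger peaks, 0 of 30 were gained in U2OS shMETTL14, against 3.57% over all genes, and 2 of 30 were lost from U2OS NC (6.67%), both on KIAA1429, against 5.25% over all genes. In 143B shMETTL14, 5 of 28 were gained (17.9%, interval 6.06 to 36.9), against 5.85% over all genes, and these were isoform listings of 2 loci, 3 on KIAA1429 and 2 on METTL3. In 143B NC, 1 of 31 was lost (3.23%), on ALKBH5, against 3.91% over all genes.

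**Figure D5:**
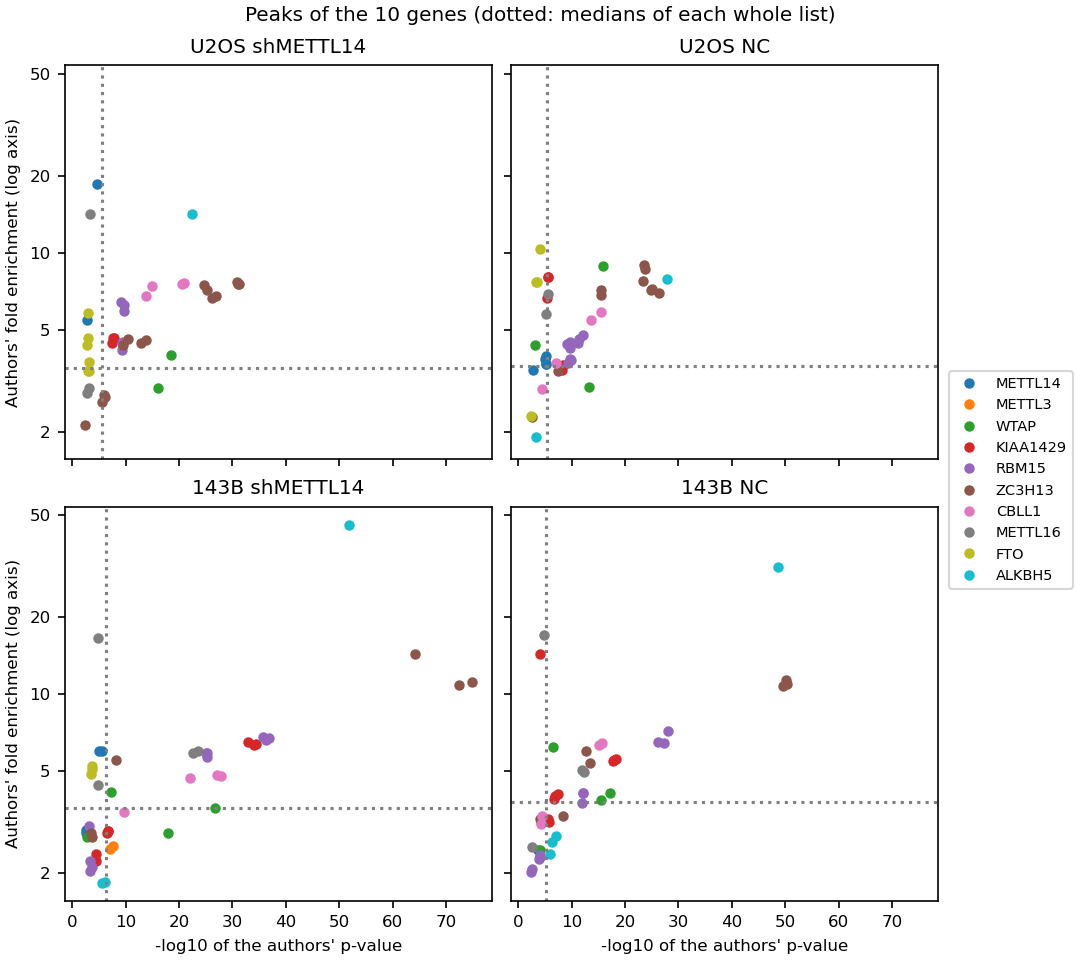
Each point is a listed peak of the 10 genes, placed by the authors' p-value (−log10) and fold enrichment (log axis) in its own list, and dotted lines mark the medians of the whole list. ALKBH5 reaches 46.0 in 143B shMETTL14 and 31.3 in 143B NC at very low p-values, while the METTL14 peak at 18.5 and the METTL16 peaks at 14.2 to 17.0 lie left of the median p-value.

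High fold enrichments came with high and with low p-values. Of the peaks at or above the 95th percentile of fold enrichment in a list, a limit chosen after the values were seen, 60.7% to 71.0% had a p-value above the list median. Member peaks among them numbered 3 in U2OS shMETTL14 and 0 in U2OS NC, and 3 in 143B shMETTL14 and 3 in 143B NC. Among the members, the coding peaks of ALKBH5 in U2OS shMETTL14 and both 143B lists and 1 peak of ZC3H13, at 14.4-fold in 143B shMETTL14, had both a high fold and a low p-value. The METTL14 peak at 18.5, the METTL16 peaks at 14.2, 16.6 and 17.0 and the KIAA1429 peak at 14.3 all lay in 3′ UTRs or across a 3′ UTR boundary and had p-values above their list's median.

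Between the lines, unmatched peaks of the 10 genes were counted in the same way. With shMETTL14, 8 of 42 U2OS peaks had no 143B partner (19.0%, interval 8.60 to 34.1), against 22.0% of all peaks. With NC, 11 of 45 had none (24.4%, interval 12.9 to 39.5), against 30.2%. Of the 143B peaks, 22 of 48 had no U2OS partner with shMETTL14 (45.8%, interval 31.4 to 60.8), against 34.6% of all, and 16 of 46 with NC (34.8%, interval 21.4 to 50.2), against 31.4%. These intervals include the shares of the whole lists. Without ZC3H13, the U2OS share with no 143B partner was 29.6% with shMETTL14 (interval 13.8 to 50.2). With NC it was 28.6% (interval 14.6 to 46.3). The 143B share with no U2OS partner was then 52.4% with shMETTL14 (interval 36.4 to 68.0). With NC it was 37.8% (interval 22.5 to 55.2). The interval for 143B shMETTL14 thus lay above the 34.6% of all peaks, and the other intervals included the shares of their whole lists. This leave-out was chosen after seeing the data, and isoform listings are taken as independent.

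The sites found in both 143B lists and in neither U2OS list were the 5′ UTR site of WTAP, site 4 of KIAA1429 at its 3′ end, the upstream coding site 3 of RBM15, 3′ UTR site 2 of METTL16 and 3′ UTR site 2 of ALKBH5. FTO site 1 was the site seen in both U2OS lists alone. On KIAA1429 the covered bases with shMETTL14 were 218 in U2OS and 1388 in 143B, and with NC 459 in U2OS and 1306 in 143B. On METTL16 they were 182 in U2OS and 1049 in 143B with shMETTL14, and 300 in U2OS and 929 in 143B with NC. On CBLL1 they lay between 899 and 961 in all 4 lists.

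By transcript region, coding sequence held most peaks of the 10 genes. It held 64.3% of them in U2OS shMETTL14 and 60.0% in U2OS NC, and 52.1% in 143B shMETTL14 and 52.2% in 143B NC. Over all genes the coding share was 54.2% in U2OS shMETTL14, 53.6% in U2OS NC and 50.3% in 143B NC. For 143B shMETTL14 it was 17591 of 35195 peaks. Peaks annotated as coding sequence and 3′ UTR, across the stop codon, numbered 5 of 42 in U2OS shMETTL14 and 9 of 45 in U2OS NC, and 10 of 48 in 143B shMETTL14 and 12 of 46 in 143B NC. In all peaks that class made up 15.7% to 16.6% of a list. The 9 sites present in all lists all held coding sequence, and of the 10 sites seen in 1 list, METTL14 site 3, RBM15 site 6 and METTL16 sites 3, 4 and 5 lay in the 3′ UTR. Regions were not counted by site over all genes, so neither count has a background here.

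Of 18 other m6A factors examined, 6 were further writers or partners and 12 were readers, proteins that bind the mark. METTL4 and METTL5 had peaks in all 4 lists with none lost or gained, while RBM15B, PCIF1 and TRMT112 had none anywhere. ZCCHC4, which methylates ribosomal RNA, had 2 peaks in 143B shMETTL14 and no other. The readers had 63 peaks in U2OS shMETTL14, of which 7 were gained (11.1%, against 20.9% of all peaks), and 60 in U2OS NC, of which 3 were lost (5.0%, against 26.9%). In 143B shMETTL14, 11 of 63 were gained (17.5%, against 27.3%), and in 143B NC 3 of 57 were lost (5.26%, against 20.7%). YTHDF2 supplied 5 of the 7 gained peaks in U2OS and 5 of the 11 in 143B, and was named after its values were seen. YTHDC2 had 1 peak in U2OS shMETTL14 and none in U2OS NC, and IGF2BP1 and IGF2BP3 had 2 and 1 peaks in 143B shMETTL14 and none in 143B NC.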

How the data were processed

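Each of the 4 immunoprecipitated libraries has 1 deposited peak list; the input libraries enter through those lists. The submitters' processing notes name HISAT2, Trimmomatic, FastQC 0.11.5 and the hg19 (GRCh37) build. Peak caller, peak threshold and transcript annotation: not given in the sources used here. The fold enrichment and the p-value per peak were deposited by the authors. The definition of the fold enrichment is not given, and it was read here as a linear ratio. The lists carry no counts, so depth is unknown.

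Groups were taken from the sample titles. Peaks matched when their spliced blocks on 1 strand shared at least 1 bp. Overlapping peaks were joined to sites, within a list or over the 4 lists; sites can chain neighbouring peaks. Intervals are Clopper-Pearson at the 95% level. The overlap step was tried on the U2OS NC list against a copy of it with random sites removed and the other peaks shifted slightly. That check did not cover peaks that split or change width between lists. All 10 genes are described; of other factors, those with peaks in only 1 list of a line are named. Genes and lists were chosen with earlier results of these data known. The planned motif count was not run, and sequences were not analysed here. RefSeq (GRCh38.p14) lists SOD2 and TOX4 beside WTAP and METTL3 in overlapping spans, and pseudogenes of WTAP, CBLL1 and FTO, so those peaks are less certain; no member peak overlapped a peak of another gene. Alternatives changed the overlap, peaks, unit, strand and transcripts. Python 3.11.15, numpy 2.4.6, pandas 2.3.3, scipy 1.17.1 and matplotlib 3.10.9 were used.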

Additional observations from a re-analysis of the deposited data

Results flagged for a closer look

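For several genes the values with shMETTL14 and NC differed in opposite directions in U2OS and 143B. With 1 list per group these differences were not tested, and a single pair of lists per line fixes each direction. METTL14 had 2 listed peaks in U2OS shMETTL14 against 5 in U2OS NC, and 4 in 143B shMETTL14 against 1 in 143B NC, so the U2OS difference minus the 143B difference was -6 peaks. In covered bases the same quantity was -309 nt for METTL14, -328 nt for WTAP, -323 nt for KIAA1429, -415 nt for ZC3H13 and -238 nt for METTL16, each with fewer bases under shMETTL14 in U2OS and more in 143B. ZC3H13 had the reverse sign in listed peaks, with 15 in U2OS shMETTL14 against 10 in U2OS NC and 6 in 143B shMETTL14 against 9 in 143B NC, a value of 8.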

How the results depend on the processing

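The main quantities were 9, namely 8 shares and the 9 sites in all 4 lists. Of 100 recomputed values, 82 stayed within the interval of the main value, or within 1.5 times the count, and 18 did not. Some shares moved from below the all-gene value to above it, or the reverse. Where a partner had to share at least 50% of each peak, 38.1% of the U2OS shMETTL14 peaks were gained (all genes 37.0%), 40.0% of the U2OS NC peaks lost (all genes 41.7%) and 39.1% of the 143B NC peaks lost (all genes 39.5%). Between the lines the same limit left 69.0% of U2OS shMETTL14 (all genes 43.1%), 55.6% of U2OS NC (49.0%), 72.9% of 143B shMETTL14 (51.7%) and 60.9% of 143B NC peaks (50.3%) without a partner. The exact intervals of the shMETTL14 shares, 52.9 to 82.4 for U2OS and 58.2 to 84.7 for 143B, lay above the all-gene values, with isoform listings taken as independent. With only the peaks whose p-value was no higher than the list median, 0% were gained in U2OS shMETTL14 (all genes 3.57%), 6.67% lost from U2OS NC (5.25%) and 3.23% lost from 143B NC (3.91%). Between the lines that limit left 0% of U2OS shMETTL14 (all genes 7.14%), 0% of U2OS NC (12.1%), 21.4% of 143B shMETTL14 (12.6%) and 16.1% of 143B NC peaks (12.8%) without a partner. With only peaks at or above the median fold enrichment, 28.6% of 143B shMETTL14 (all genes 30.5%) and 11.5% of 143B NC peaks (30.0%) had no U2OS partner. Covered bases in place of peaks, chosen after seeing the data, as was leaving out METTL14 or ZC3H13, gave 7.28% for U2OS shMETTL14 (all genes 24.1%) and 11.4% for U2OS NC (35.4%) without a 143B partner. The cause was not tested. The number of sites in all 4 lists ran from 7 to 9. The labels give no replicate numbers, and no test over the 2 hairpin pairs was run. Peaks that barely miss a partner decide calls on FTO, WTAP and METTL16.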
